A study of Arabidopsis thaliana with 3 samples.

Results

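Head-to-head gene pairs are neighbouring genes that lie on opposite strands and are transcribed away from each other out of 1 shared space, so that their transcription start sites (TSSs) stand back to back. All adjacent, non-overlapping protein-coding genes of the RefSeq annotation of Arabidopsis thaliana (assembly TAIR10.1, which keeps the TAIR10 coordinates of the 5 nuclear chromosomes) whose TSSs were at most 500 bp apart in this arrangement were taken, which gave 1511 pairs among 23519 pairs of adjacent neighbours. They held 3022 of 27444 protein-coding genes, and no gene sat in more than 1 pair. A TSS was the outermost 5′ end of the gene. The choice used only the annotation and no binding value.

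The binding data were UBP5-GFP chromatin immunoprecipitation followed by sequencing (ChIP-seq) from seedlings 12 days after germination, with 2 biological replicates and 1 input library. The plants were UBP5pro::gUBP5-eGFP;ubp5, in the Col-0 background: the endogenous UBP5 gene carried a deletion made with CRISPR-Cas9, and a genomic UBP5 copy under its own promoter, fused to eGFP, was added back and bound with an anti-GFP antibody. No precipitation from plants without GFP was analysed here, so every fold below is a peak against the single input, and whole seedlings give an average over all their cell types. The 2 peak lists held 10266 and 10898 peaks, of which 86.6% and 78.4% overlapped a peak of the other replicate, with a median fold over input of 2.31 for the first list and 1.92 for the second. The peak lists carry no read totals, so no counting interval is given. The reporting summary of the study lists unequal totals for the libraries, with the second replicate the deepest. Replicate 2 had the lower folds and yet the higher −log10 q, with medians of 18.4 against 12.8 for replicate 1, and the part of depth in differences between the replicates was not tested.

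UBP5 is a ubiquitin-specific protease, an enzyme that takes ubiquitin off other proteins, and was studied here as an enzyme acting on ubiquitinated histone H2A. In plants this mark is placed by Polycomb Repressive Complex 1, and it lies mostly towards the 5′ part of genes. A head-to-head pair is a place where a protein bound just downstream of 1 TSS can be set against the neighbouring TSS in the same stretch of chromatin, since the bodies of the genes run in opposite directions. Arabidopsis pairs of this kind are known for sharing promoter elements within the space between the TSSs, among them the GGCCCA element of many housekeeping genes.

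A gene was called occupied where, in each replicate, a peak overlapping a peak of the other replicate by at least 1 bp had its summit 0 to 600 bp downstream of the TSS. Each peak has only 1 summit, so a broad peak over both TSSs can make only 1 gene occupied. The spaces of 3 pairs are printed first, because they show how short the sequence between the starts can be, for a pair with 1 gene occupied, a pair with both occupied unequally and a pair with both at like folds. Each is the plus strand, 5′ to 3′, from the base after the minus-strand TSS to the base before the plus-strand TSS, with TGGGCC or its reverse complement GGCCCA in capitals.
AT2G35360/GDCH, chr2:14891005-14891040: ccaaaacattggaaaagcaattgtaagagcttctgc
HEB2/AT3G16740, chr3:5699168-5699309: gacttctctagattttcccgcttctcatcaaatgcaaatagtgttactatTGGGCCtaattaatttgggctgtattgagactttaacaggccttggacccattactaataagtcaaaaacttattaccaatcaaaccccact
AT3G09480/AT3G09490, chr3:2915443-2915549: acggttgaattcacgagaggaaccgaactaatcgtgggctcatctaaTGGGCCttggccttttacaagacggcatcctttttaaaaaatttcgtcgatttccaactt
Beside the first space only AT2G35360 was occupied, and no peak of either replicate touched the 600 bp of GDCH. In the second pair both genes were occupied but very unequally, and in the last both were occupied about equally.

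Of the 1511 pairs, 205 (13.6%) had both genes occupied, 722 (47.8%) had exactly 1 gene occupied and 584 (38.6%) had neither. In all, 1132 member genes (37.5%) were occupied, against 24.9% of all protein-coding genes and 23.3% of the 24422 genes outside these pairs. With replicate 1 alone, 46.0% of the member genes had a summit in the window (29.5% of all genes), and with replicate 2 alone 39.6% did (27.1% of all genes), a mean of 42.8% ± 4.52 (SD, n = 2). Both replicates therefore placed the member share above the share of all genes, by more than the difference between the replicates. With 1 group of 2 replicates and no second condition, no test was made, and all values below are descriptions.

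The share was highest where the TSSs were over 100 and up to 200 bp apart, and lower at longer distances. Genes were occupied in 39.0% of cases where the TSSs were at most 100 bp apart, 43.5% at up to 200 bp, 37.4% at up to 300 bp, 30.3% at up to 400 bp and 30.7% at up to 500 bp, each range starting where the one before it ended. Divergent neighbours farther apart stood at 29.7% for distances up to 1000 bp (949 pairs) and 25.8% for up to 3000 bp (2017 pairs). Same-strand neighbours with at most 500 bp between them, 5055 tandem pairs in which a gene can sit in more than 1 pair, stood at 33.4%. The closest head-to-head pairs were thus above all 3 of these groups, and those with TSSs over 300 bp apart were below the tandem pairs. At the distance limit itself, the 114 pairs within the last 50 bp below it held 12 with both, 46 with 1 and 56 with neither gene occupied, and the 103 pairs within the first 50 bp above it held 8, 51 and 44.

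**Figure D1:**
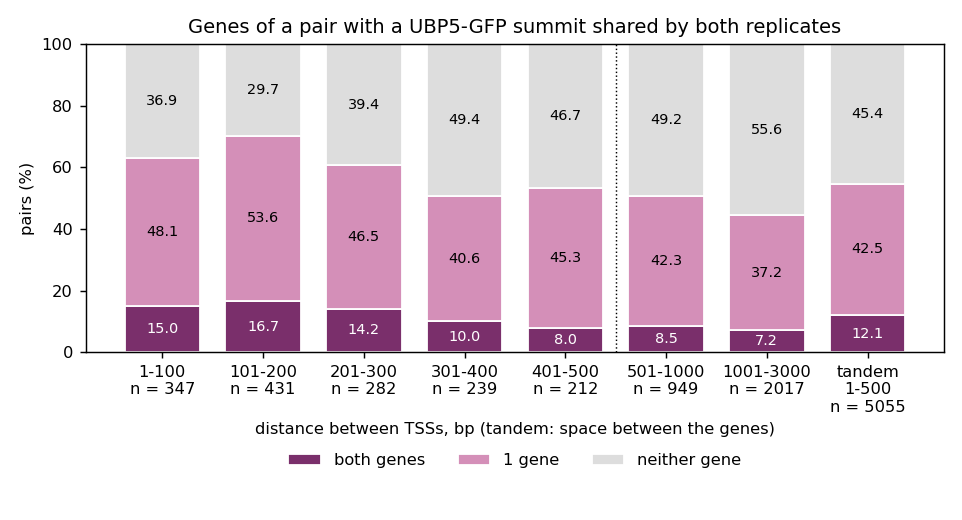
Share of pairs (%) with both, 1 or neither gene occupied by a UBP5-GFP summit found in both replicates, by the distance between the TSSs in bp (for tandem pairs, the space between the genes), with the number of pairs under each bar; the dotted line marks the 500 bp limit. Pairs with both genes occupied made up 16.7% in the range ending at 200 bp and 8.02% in the range ending at 500 bp.

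Whether 1 gene of a pair was occupied said little about its partner, and the answer depended on the replicate. When a gene was occupied in both replicates its partner was occupied in 36.2% of cases, and when it was not, in 38.2%. In replicate 1 alone the same shares were 50.3% and 42.4%, so partners were occupied together more often, whereas in replicate 2 alone they were 39.2% and 39.9%. The means were 44.8% ± 7.84 and 41.1% ± 1.74 (SD, n = 2), which differ by less than the spread between the replicates. In tandem pairs the partner of an occupied gene was the more often occupied in each list (36.3% against 31.9% for both replicates). Where the upstream gene of a tandem pair is short, the windows overlap and 1 summit can count for both genes. This cannot happen in divergent pairs, and its part in the tandem shares was not tested. In divergent pairs with over 500 and up to 1000 bp between the TSSs the shares were 28.8% and 30.04%.

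The comparison differed between ranges of distance as well. For both replicates together the share for partners of occupied and of unoccupied genes was 38.4% and 39.5% at up to 100 bp, 38.4% and 47.4% over 100 and up to 200 bp, 37.9% and 37.1% over 200 and up to 300 bp, 33.1% and 29.1% over 300 and up to 400 bp and 26.2% and 32.7% over 400 and up to 500 bp. In the ranges ending at 300 and 400 bp the partner of an occupied gene was the more often occupied in each replicate alone too. At up to 100 bp the replicates differed most, with 58.5% and 42.03% in replicate 1 and 39.2% and 42.6% in replicate 2.

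Peaks that ran over both starts moved with this comparison. A single peak covered both TSSs in 51 pairs in replicate 1 and in 96 pairs in replicate 2, most of them with TSSs at most 200 bp apart, and such a peak places its summit in 1 gene at most. There were 137 pairs with both genes occupied in replicate 1 and only 1 in replicate 2, of which 40 had a replicate 2 peak over both TSSs and 1 had such a peak in replicate 1. Peaks of either replicate covered both TSSs in 98 pairs, and none of these pairs had both genes occupied in both replicates. When any overlap of a shared peak with the 600 bp counted in place of its summit, the partner shares were 49.8% and 36.9%. Under that rule 1 peak can make both genes occupied, which by itself raises the first share, so no change of direction is read from it. The part of peaks over both TSSs in these differences was not tested.

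**Figure D2:**
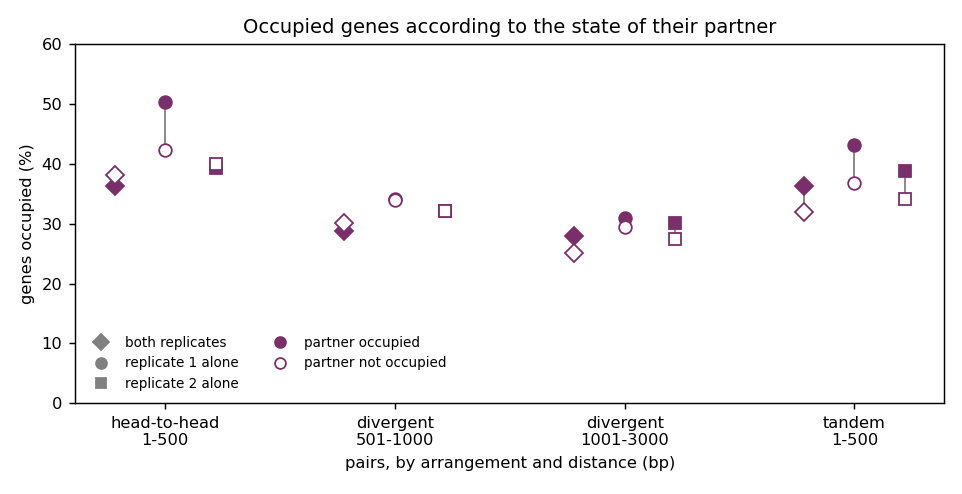
Share of genes occupied (%) when the partner was occupied (filled) and when it was not (open), for pairs by arrangement and distance in bp, with calls made in both replicates (diamonds), replicate 1 alone (circles) or replicate 2 alone (squares). In head-to-head pairs of all distances pooled, the filled symbol was above the open one only in replicate 1, at 50.3% against 42.4%. In tandem pairs, where 1 summit can count for both genes, it was above in all 3.

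The class of a pair was the same in the 2 replicates taken alone for 1209 pairs (80.0%). In 563 pairs each replicate alone had exactly 1 gene occupied, and it was the same gene in 556 of them (98.8%). That share covers only pairs in which each replicate called exactly 1 gene, so it cannot be set against the share of pairs with the same class. Among the 722 pairs with 1 occupied gene, it was the plus-strand gene in 381 and the minus-strand gene in 341.

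In these 722 pairs the partner was mostly free of peaks and not only short of the summit rule. No peak of either replicate touched the 600 bp downstream of the partner TSS in 494 pairs (68.4%). A peak touched it in replicate 1 only in 95 pairs, in replicate 2 only in 27 and in both in 106. The peak of the occupied gene itself reached across into the window of the partner in 44 pairs in replicate 1 and 87 in replicate 2. Of the 584 pairs with neither gene occupied, 410 (70.2%) had no peak of either replicate in either window, and 27 had a peak in each window without meeting the summit rule. Shared peaks with both summits inside the space between the TSSs were found in 2 of the 1511 pairs, both in this last class.

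Shared peaks with both summits in the shared space were rare, with the 2 pairs counted above. The positions below do not bear on this, because the rule itself places the summits of occupied genes downstream of the TSS. Their median position was 298 bp (replicate 1) and 307 bp (replicate 2) downstream of the TSS in pairs with both genes occupied, 293 and 292 bp in pairs with 1, and 316 and 320 bp at occupied genes outside the pairs. In pairs with both genes occupied the summits of the 2 genes were a median of 806 and 813 bp apart, a spacing bounded by the same rule. In the annotated transcript with the longest coding sequence, the summit of these genes was in a coding exon for 55.9% and 57.6%, in an intron for 32.9% and 31.5% and in the 5′ untranslated region (UTR) for 10.2% and 9.76%. At the edge of the window, 122 member genes had their farther summit in the last 100 bp of the window, with a median fold of 2.45 and 1.92, and 32 more had it in the 100 bp beyond, with 2.59 and 2.15.

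Having both genes occupied did not go with stronger peaks. The median fold over input was 2.54 in replicate 1 and 1.95 in replicate 2 for the 410 genes of pairs with both occupied, 2.56 and 2.03 for the 722 occupied genes with an unoccupied partner, and 2.51 and 2.01 for 5698 occupied genes outside the pairs. A fold of at least 3 was reached by 23.2% and 8.29% of the first, 28.7% and 12.6% of the second and 26.5% and 10.5% of the third. Replicate 1 gave higher folds than replicate 2 in all 3 groups, so genes are compared within a replicate. The highest fold of a member, 17.8 and 14.3, was at AT1G13880, and it was picked out after its values were seen. Its partner DRL1 did not meet the summit rule, but its 600 bp were not free of peaks. The study used AT1G13880 as a target locus in ChIP followed by quantitative PCR.

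Within the 205 pairs with both occupied, the stronger gene had a median of 1.26 times the fold of the weaker in replicate 1 and 1.22 times in replicate 2. The ratio was at least 1.5 in 43 and 45 pairs, and in both replicates in 33 pairs. The same gene was the stronger in both replicates in 170 of the 205 pairs (82.9%), including all 33 of these. Across the pairs, the log2 fold of the minus-strand gene and that of the plus-strand gene had a Pearson correlation of 0.028 in replicate 1 and −0.012 in replicate 2, whereas between the replicates the correlation was 0.923 for the log2 fold of a gene and 0.929 for the log2 ratio between the genes of a pair. These correlations are over pairs that share the same libraries and the same input, and they are given as descriptions. Within these 205 pairs the fold of 1 gene thus showed no linear relation to that of its neighbour in either replicate. Both genes had to pass the peak call in both replicates, so weak or uncalled partners are not covered.

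**Figure D3:**
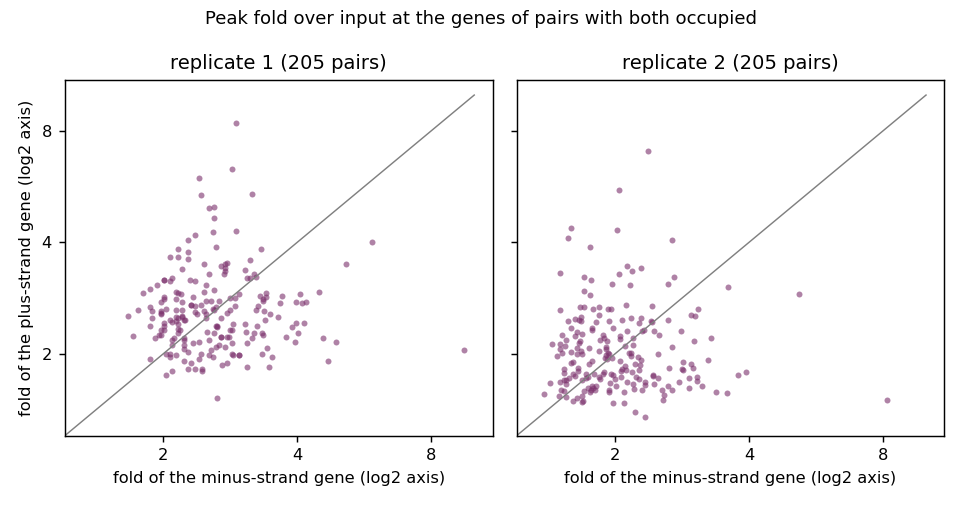
Peak fold over input of the minus-strand gene (x, log2 axis) and the plus-strand gene (y, log2 axis) in the 205 pairs with both genes occupied, 1 panel for each replicate and 1 point for each pair; the line marks equal folds. The points form a cloud without slope, with correlations of 0.028 and −0.012, and a few pairs stand far from the line.

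The strongest pairs of all, ordered by the lowest fold over both genes and both replicates, mixed functions. AT1G77620, a P-loop nucleoside triphosphatase, had a fold of 5.14 in replicate 1 and 3.58 in replicate 2, and its partner LYM3, a LysM protein of the plasma membrane that senses peptidoglycan, had 3.49 and 3.03. The histone gene AT5G59970 had 5.89 and 5.19, and across 370 bp GAF1, one of the developmental genes the study names, had 4.00 and 2.90. In both pairs the minus-strand gene was the higher in each replicate.

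NRP1, a histone chaperone of the NAP1 family, had 3.31 and 2.71, beside the pentatricopeptide repeat gene AT1G74580 with 3.84 and 3.22. The histone gene AT3G09480 had 3.09 and 2.96, and AT3G09490, a tetratricopeptide repeat protein 108 bp away, had 3.20 and 2.54. ARP7, a nuclear actin-related protein, had 3.20 and 2.70, and PBF1, a subunit of the core proteasome whose TSS lies 12 bp from that of ARP7, had 3.14 and 2.42. ARP7 was the higher of its pair in each replicate, whereas AT3G09480 was the lower in replicate 1 and the higher in replicate 2.

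PEX13, needed for protein import into peroxisomes, had 3.05 and 2.63, and its partner AT3G07565, which RefSeq names a histone H2A deubiquitinase with a DUF3755 domain, had 3.36 and 2.46. AT1G60670, a gene of unknown function that carries the same DUF3755 name, was occupied too, at 5.38 and 4.11, beside the cytochrome b5-like CB5LP at 2.42 and 1.57. Proteins of membranes were among them as well, with VPS2.3, an ESCRT-III protein, at 2.82 and 2.42, and MSL3, a mechanosensitive channel of plastids, at 3.36 and 2.41. The remaining 4 of the 12 strongest pairs paired an F-box gene, an RNase L inhibitor-like gene, a factor for assembly of the V-ATPase and a pseudouridine synthase with their neighbours, at folds between 2.53 and 5.40.

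Pairs with 1 gene occupied and a partner free of peaks were ordered by that gene alone, an order unlike the one above. High folds were not limited to them, since HEB2, in a pair with both occupied, had 9.47 and 8.17. SMC2, a core subunit of condensin, which compacts chromosomes, had 10.4 and 8.51, while no peak touched the first 600 bp of AT5G62400, whose TSS lies 361 bp away. HTA10, a gene for histone H2A, had 8.81 and 8.07, with the FBD-like gene AT1G51055 free at 496 bp. These are the highest folds among pairs whose partner window held no peak, and the next 6 such pairs had folds between 4.55 and 6.09.

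Shorter distances gave the same picture. The TSSs of AT1G54050, a small heat shock protein gene (6.09 and 5.51), and ASIL1, a repressor of seed maturation genes, are 44 bp apart, and ASIL1 was free of peaks. Across the 37 bp that separate their starts, AT2G35360, a ubiquitin family protein, had 5.45 and 4.55 and GDCH, a subunit of the glycine decarboxylase of photorespiration, had none. BIN4, a component of the plant topoisomerase VI complex needed for endoreduplication, had 4.78 and 4.66, with AT5G24640 free. AT4G17410, a DWNN domain protein with a CCHC-type zinc finger, had 5.47 and 4.71, beside AT4G17390, a ribosomal protein gene without a peak. Of the other 2 such pairs, AT3G08780, named for the Abro1 subunit of the BRISC complex, a deubiquitinase complex in animals, had 5.58 and 4.70, and AT2G41600, a mitochondrial glycoprotein family gene, had 5.38 and 4.74.

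Among pairs with both occupied, the most unequal was HEB2 with AT3G16740. HEB2, the H2 subunit of condensin II, had 9.47 and 8.17, and the F-box gene 143 bp away had 2.05 and 1.499, a ratio of 4.63 and 5.45. AT1G19980, a cytomatrix-like protein, had 8.38 and 7.06 against 2.91 and 2.37 at AT1G19970, an ER lumen protein retaining receptor. ACX2, a peroxisomal acyl-CoA oxidase of fatty acid β-oxidation, had 2.402 and 1.59 beside AT5G65120 with 5.96 and 4.36, and ATPC2, a γ subunit of the chloroplast ATP synthase, had 2.85 and 2.04 beside AT1G15710, a prephenate dehydrogenase family gene, with 6.32 and 5.55. In these pairs, and in AT1G71080/AT1G71090 and CB5LP/AT1G60670, the ratio was at least 2.20 in each replicate.

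**Figure D4:**
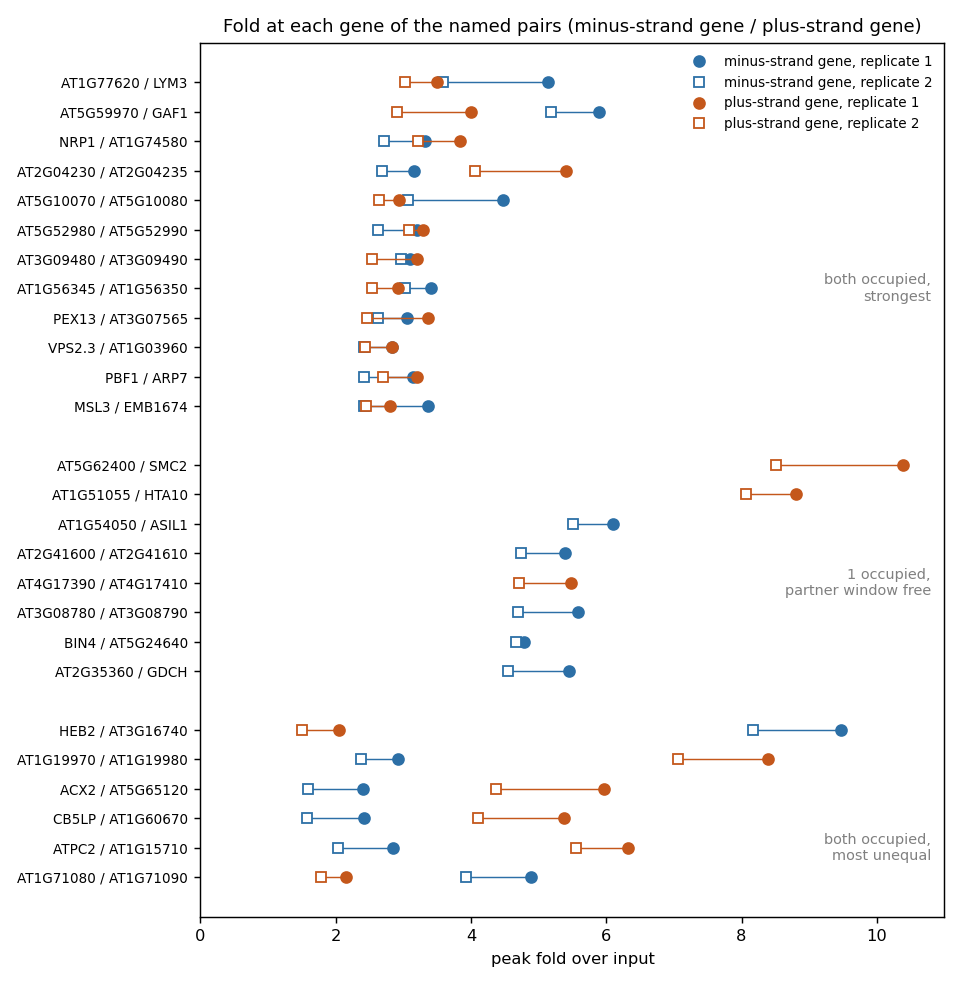
Peak fold over input (x) at each gene of 12 pairs with both genes occupied and the highest lowest fold, 8 pairs with 1 gene occupied and no peak in the window of the partner, and 6 most unequal pairs with both occupied; blue, minus-strand gene, orange, plus-strand gene, filled circles, replicate 1, open squares, replicate 2. SMC2 (10.4 and 8.51) and HEB2 (9.47 and 8.17) stand farthest to the right.

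Very short distances allowed every class. TSSs 5 bp apart had both genes occupied at SSL3 and SDH6 (3.34 and 2.33 against 2.27 and 1.68), the latter a subunit of mitochondrial succinate dehydrogenase. The same distance separates AT1G78620 (2.85 and 2.17) from emb1473 (2.31 and 1.98), a plastid-type ribosomal protein L13, and ULP1A, a SUMO protease (2.22 and 1.76), from AT3G06920 (2.05 and 1.58). At 10 bp, CI51 of mitochondrial complex I had 4.09 and 2.93 and AT5G08535 had 2.74 and 1.61. The 4 closest pairs with neither gene occupied, AT5G37340/AT5G37350, AT1G29775/AT1G29780, AT1G09400/AT1G09410 and BGAL11/RAC3, have TSSs 1 to 4 bp apart, and none of their 8 windows was touched by a peak. RAC3 is a ROP-type small GTPase and BGAL11 a β-galactosidase.

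Of a list of 14 genes drawn from the text of the study, which names others too, 6 sat in head-to-head pairs. The Polycomb Repressive Complex 2 subunit EMF2 was occupied (2.11 and 1.79), as was its partner AT5G51220, a chaperone for the cytochrome bc1 complex (2.67 and 2.07). MSI1, a WD40 histone-binding subunit of the same complex, was occupied at 2.25 and 1.72, and TTL, a transthyretin-like protein of ureide metabolism whose TSS is 11 bp away, had no peak. GC4, a Golgi protein, had 4.14 and 3.15, with AT2G46190 free, and the locus of PWO1, AT3G03140, had no peak on either side of the 94 bp that part it from AT3G03130. GAF1 is described above.

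UBP5 itself and AT2G40935, a PLAC8 family gene, formed a pair with both occupied, at 3.17 and 2.78 and at 2.20 and 1.68. The transgene carries UBP5 and an upstream fragment that is longer than the 217 bp between the TSSs. It thus also holds the start of AT2G40935, and reads of the transgene and of the chromosomal locus cannot be told apart here. The −log10 q of the UBP5 peak was 164 and 318, whereas AT5G65120, the partner of ACX2, had 111 and 164 at its higher fold of 5.96 and 4.36, and the AT2G40935 peak likewise had 48.3 and 45.7 at a fold where EMF2 had 8.93 and 13.3. Both values at this pair came with more significance for their fold than at other members, and the part of the extra copy in them was not tested.

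Gene groups were drawn by words of the RefSeq product names, which placed 659 of the 3022 member genes, so a name can sit in a group only by its wording. Genes of DNA replication, repair and recombination were occupied in 14 of 21 cases (66.7%), against 47.4% of the same group outside the pairs and 24.9% of all genes. The highest of them were AT1G75860, named a DNA ligase (3.78 and 2.94), and PRD1, needed for the start of meiotic recombination (3.14 and 2.83). Genes of chromatin and histones stood at 14 of 27 (51.9%), led by SMC2 and HTA10, and outside the pairs at 49.8%. RNA processing stood at 45 of 88 (51.1%, outside 45.5%), led by PMH2, a mitochondrial RNA helicase (6.18 and 5.27), and by RAD5, a DNA repair helicase that its wording put in this group (3.31 and 3.27). These 3 groups were above 45% inside and outside the pairs alike.

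Genes with words of transcription factors were occupied in 28 of 59 cases (47.5%) in the pairs and in 18.5% of 1183 genes outside them. The highest were AT4G17410, a DWNN domain protein grouped by its wording, and AT2G37000 of the TCP family (4.67 and 4.23). For transporters the shares were 25 of 56 (44.6%) and 22.5%, led by MTACP-1, an acyl carrier protein grouped by the word carrier (6.26 and 5.44), and AT2G39500, a hexose transporter (4.83 and 3.53). Words of protein kinases gave 30 of 95 (31.6%) and 21.7%, with ITPK1, an inositol phosphate kinase (4.65 and 3.34), and the LAMMER-type kinase FC1 (4.40 and 3.12) at the top. Words of ubiquitin and the proteasome, the largest group, gave 51 of 156 (32.7%) and 23.7%, with AT3G62240, a RING/U-box protein, at 6.52 and 4.72. Beside the 37.5% of all member genes, kinases and ubiquitin genes were below and transcription factors and transporters above.

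Chaperones went the other way, with 13 of 43 occupied in the pairs (30.2%) and 41.1% outside, although AT1G54050 and the DNAJ gene AT3G08910 (4.43 and 3.86) were high. Pentatricopeptide repeat genes, which edit and process organellar RNA, stood at 24 of 64 (37.5%) and 36.7%, with AT1G80550 (5.16 and 3.93) and AT3G60050 (4.00 and 3.43) at the top. Ribosomal proteins stood at 9 of 27 (33.3%) and 25.3%, with none above the 3.29 and 2.47 of AT2G45710 and rps15ab next at 3.02 and 2.35. Translation factors and tRNA synthetases stood at 13 of 30 (43.3%) and 37.8%, with the cysteinyl-tRNA synthetase AT3G56300 at 3.58 and 3.07 and AT1G71080, a transcription elongation factor grouped by its wording, at 4.89 and 3.93. Of 15 cytochrome P450 and glycosyltransferase genes 1 was occupied (6.67%, outside 4.92%). It was CYP77A5P, whose product name calls it a pseudogene, at 2.82 and 2.17.

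The study's own motif search around the TSSs of UBP5 target genes had pointed to GAGA and Telobox elements. That search covered mostly sequence upstream of the TSS, with a shorter stretch downstream. Here the words GAGAGAGA and AAACCCTA, with their reverse complements, were looked up in the 600 bp downstream of every TSS, an unlike window. Since these words were picked on target genes of the same precipitations, a high share at occupied genes is no independent evidence. The same holds for a difference between an occupied gene and its unoccupied partner, and both are given as descriptions. Telobox sites of some genes with a strong or contrasting signal are shown on the strand of the gene, 5′ to 3′, with the word in capitals. Only carriers of the word can be shown. Other strong genes lacked it, among them AT1G15710 (6.32 and 5.55), AT1G54050 (6.09 and 5.51) and AT5G59970 (5.89 and 5.19).
SMC2, chr5:25056235-25056264, plus strand, 5′ UTR: tcgcttttttcTAGGGTTTtgtcgcatatg
HTA10, chr1:18927179-18927208, plus strand, intron: tcaatttctatAAACCCTAattttgactga
HEB2, chr3:5698944-5698973, minus strand, 5′ UTR: ttcagagttttTAGGGTTTcagctttttct
AT1G19980, chr1:6933403-6933432, plus strand, intron: gttaggtttttTAGGGTTTcgctctctcct
EMF2, chr5:20823805-20823834, plus strand, 5′ UTR: tttctcacaatTAGGGTTTtttttttcttc
MSI1, chr5:23556052-23556081, plus strand, 5′ UTR: gagatctgtttTAGGGTTTtgccttgttct
The words of SMC2, HTA10, HEB2 and AT1G19980 had their centres 5.5 to 64.5 bp from the summits of the 2 replicates. That of EMF2 lay 140.5 and 147.5 bp from the summits and that of MSI1 340.5 and 276.5 bp. AT5G65120 (5.96 and 4.36), not printed, had its words 130.5 to 149.5 bp from its summits. AT3G16740, the weaker partner of HEB2, also carried the word, 20.5 and 47.5 bp from its summits.

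Occupied genes carried the Telobox word at about the same rate whether or not the partner was occupied, and their unoccupied partners carried it at about the rate of all genes. It was found downstream of 36.1% of the genes in pairs with both occupied, 35.9% of the occupied genes in pairs with 1, 17.7% of their partners and 13.7% of the genes in pairs with neither, against 18.8% of all protein-coding genes. Occupied genes outside the pairs had it in 38.1% and unoccupied ones in 12.2%. Within the 722 pairs with 1 occupied gene, the word was on the occupied side only in 215, on the other side only in 84, on both in 44 and on neither in 379. The difference between the sides was 18.1 percentage points for both replicates, and 16.5 and 18.96 points for replicates 1 and 2 alone.

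Counted by pair, the number of starts with a Telobox word went with the class. Of 904 pairs without the word, 10.07% had both genes occupied and 48.01% neither. Of 519 pairs with it on 1 side, 15.4% had both and 27.0% neither, and of 88 pairs with it on both sides, 38.6% had both and 11.4% neither. In the 519 pairs the gene with the word was occupied in 56.8% of cases and the gene without it in 31.6%. Even without the word, member genes were occupied in 31.2% of cases, against 17.7% of genes without it outside the pairs. With the word the shares were 58.6% and 48.7%.

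In this downstream window the GAGA word separated the sides much less. It was present in 29.0% of the genes in pairs with both occupied, 25.3% of occupied genes in pairs with 1, 22.7% of their partners and 20.9% in pairs with neither, with 25.5% of all genes carrying it. It was on the occupied side only in 143 pairs and on the other side only in 124. Most occupied member genes had no Telobox word close to the peak. One lay within 100 bp of the summit in 17.3% (both replicates) of the genes in pairs with both occupied and in 15.2% and 15.4% of those in pairs with 1.

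**Figure D5:**
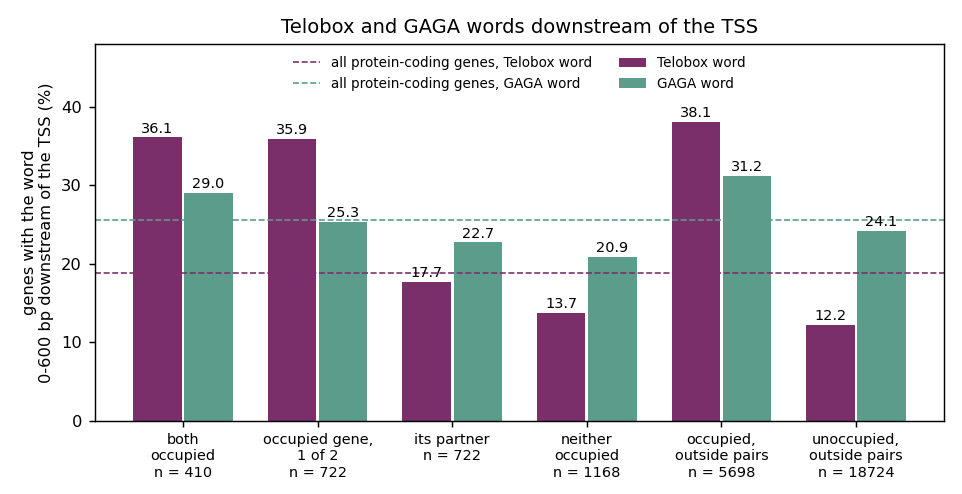
Share of genes (%) with the Telobox word AAACCCTA or the GAGA word GAGAGAGA on either strand 0 to 600 bp downstream of the TSS, by the state of the gene, with the number of genes under each group; dashed lines give the share of all protein-coding genes. The Telobox bars of the occupied genes stand at 35.9% to 38.1% and those of the unoccupied genes at 12.2% to 17.7%.

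Occupied genes were also more often the longer of the pair. In pairs with 1 occupied gene it was longer than its partner in 420 of 722 (58.2%), with a median length of 2306.5 bp against 2062.5 bp, and the median was 2296 bp in pairs with both occupied and 1847.5 bp in pairs with neither. The start codon of the occupied gene was the farther from its TSS in 403 pairs (55.8%), and the GC content of its 600 bp was the higher in 389 (53.9%), with 9 ties. When both genes had to be at least 1000 bp long, 42.1% of genes in 1154 pairs were occupied and the Telobox difference between the sides was 16.9 points. Length, GC content and the Telobox word moved together with occupancy here, and their separate parts in it were not tested.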

How the data were processed

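UBP5-GFP ChIP-seq peaks were analysed in 2 biological replicates, each called by the authors with MACS3 (3.0.0) against 1 input at q 0.01 after alignment with Bowtie2 (2.4.5) to TAIR10; Picard and deepTools are also listed in the submitters' processing notes. The deposited narrowPeak columns used were the fold enrichment over input (a ratio at the summit, which MACS computes with a pseudocount, so that low values are damped) and the −log10 q-value; the deposited score column, which the authors' MACS3 run made from the same q-values, was left unused, as was the −log10 p-value. The peak lists carry no read totals, and a peak has 1 summit, so neighbouring signals merged by the caller count once. Chromosomes 1 to 5 were used, and no peak ended past a RefSeq TAIR10.1 chromosome end.

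Adjacent genes were consecutive protein-coding genes with no other protein-coding gene reaching into their space. Where several shared peaks met the window, the pair of peaks with the largest lower fold gave the value. Scripts (Python 3.11.15, pandas 2.3.3, NumPy 2.4.6, matplotlib 3.10.9) were tested on simulated pairs. Values are given per replicate or as mean ± SD, with no test, because there is 1 group; the SD measures only the spread between these precipitations. Named pairs were the 12 strongest with both genes occupied (lowest fold over genes and replicates), the 8 strongest with 1 occupied and no peak in the window of the partner, the 6 most unequal, the 4 closest with both and the 4 closest with neither, the 2 strongest genes of each of 12 product-name groups, and pairs holding 1 of a list of 14 genes taken from the study. The pairs, groups and words were chosen with earlier results of these data known. Alternatives varied the peak threshold, the overlap, the replicates, the window, the distance, the annotation and the word.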

Additional observations from a re-analysis of the deposited data

How the results depend on the processing

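Stricter peak lists changed the counts most. At a −log10 q of at least 20, pairs with both, 1 and neither gene occupied were 27, 358 and 1126, 13.6% of genes were occupied, 13.1% of partners of occupied genes, the median ratio within pairs was 1.19 and the Telobox difference 24.9 points. At a fold of at least 3 they were 1, 122 and 1388, with 4.10%, 1.61%, 1.33 and 26.2 points. With summits 0 to 300 bp downstream they were 25, 403 and 1083, with 14.99%, 11.04% and 14.6 points, and the median fold of genes in pairs with both over that in pairs with 1 was 0.909. When any overlap with the window counted, 319 pairs had both, 42.4% of genes and 49.8% of partners were occupied, the ratio was 1.16 and the fold quotient 1.06. A single peak can then count for both genes, which by itself adds pairs with both and lowers the ratio.

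Leaving out a replicate gave 235 to 350 pairs with both, 691 to 728 with 1, 470 to 548 with neither, 39.6% to 46.0% of genes, 39.2% to 50.3% of partners, ratios of 1.21 to 1.26, fold quotients of 0.949 to 1.02 and Telobox differences of 16.5 to 18.96 points. TSSs up to 250 bp apart left 949 pairs, 316 of them with neither, and 15.1 points. Up to 1000 bp apart there were 2460 pairs, 1123 with 1 and 1051 with neither, and 22.7 points. Genes of at least 1000 bp left 1154 pairs, 370 with neither, and 42.1% of genes. These totals differ from the 1511 pairs of the main setting, so the counts move with the number of pairs as well. The word AACCCTA gave 23.5 points and a 300 bp word window 11.2.

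The partner share of occupied minus that of unoccupied genes ran from −5.93 points (long genes) to 13.0 points (any overlap), above 0 also in replicate 1 alone (7.96) and at 50% overlap (2.49). A rise is built into the any-overlap rule, since 1 peak can count for both genes. Leaving out the 98 pairs covered by 1 peak, added after seeing the data, gave 3.69, but this choice itself fixes a rise, since it removes no pair with both genes occupied. The Telobox difference was above 0 in all 18 alternatives, which is no independent evidence, since the word came from targets of the same precipitations. No paired analysis was possible because there is 1 group. The single input, the lack here of a control without GFP and the 1 summit per peak limit all values; causes of these shifts were not tested.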

Other observations

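The space between the TSSs had its own pattern of words. The Telobox word was in 2.93% of spaces with both genes occupied, 5.40% with 1 and 7.71% with neither. It was thus rarest in pairs with both, unlike downstream of the TSS. The GAGA word was in 2.93%, 2.49% and 4.79% of these spaces. TGGGCC or its reverse complement GGCCCA, the element of many housekeeping promoters, was present in 31.2% of all 1511 spaces, in 39.0% of the pairs with both genes occupied, 34.1% with 1 and 24.8% with neither. The median distance between the TSSs was 164 bp in pairs with both genes occupied and 230 bp in pairs with neither, and the part of length in these shares was not tested. With TSSs over 100 and up to 200 bp apart the shares were 51.4%, 39.8% and 32.0%, and at up to 100 bp they were 17.3%, 13.8% and 8.59%, whereas over 200 and up to 300 bp pairs with both and with 1 were level (42.5% and 42.7%) above pairs with neither (26.1%). Up to 400 bp they were 41.7%, 33.0% and 32.2%, and up to 500 bp 41.2%, 44.8% and 26.3%, so pairs with neither were the lowest in every range. The space between MSL3 and EMB1674 holds 4 such words, where TGGGCC and GGCCCA overlapping in the stretch TGGGCCCA are counted separately.

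TATAAA, a word of TATA-box promoters, was present in 34.1% of spaces with both genes occupied, 37.3% with 1 and 41.3% with neither. By range of distance, that order appeared only over 100 and up to 200 bp (25.0%, 28.6% and 31.25%). At up to 100 bp the shares were 17.3%, 9.58% and 18.0%, and over 200 and up to 300 bp 47.5%, 45.8% and 45.0%. Up to 400 bp they were 54.2%, 67.0% and 55.9%, and up to 500 bp 64.7%, 64.6% and 62.6%. The part of length in the pooled order was not tested. Downstream of the TSS the word was carried by 33.1% of the occupied genes in pairs with 1 and 39.9% of their partners.

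Pairs with both genes occupied made up 9.82% of the 224 pairs on chromosome 4 and 15.7% of the 338 on chromosome 5, with chromosomes 1 to 3 between 12.4% and 14.7%.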
